A study of Mus musculus with 16 samples.

Results

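Aquaporins are membrane channels for water, and some of them also pass glycerol, hydrogen peroxide or other small solutes. The 7 genes described here, Aqp1, Aqp3, Aqp4, Aqp7, Aqp8, Aqp9 and Aqp11, are 7 of the 12 genes of this family with a probe set that names 1 gene on the array, and each had exactly 1 such probe set. They were taken as a list of symbols drawn up with the DSS results of Aqp8 and Aqp4 in these data known. They are 7 of the 19938 genes tested. Their levels come from isolated colonic epithelium of gender-matched C57BL/6 mice aged 70 days, hybridised as 16 pools of RNA, with 3 mice in a pool.

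Of the groups, 4 drank 2% dextran sulfate sodium (DSS), a polymer used to injure the lining of the colon, for 8 days, and 4 untreated groups were set against them. Within each set the mice differed in their secretory IgA (SIgA), the antibody that the receptor Pigr carries across epithelia. The group with neither source of SIgA held Pigr-/- offspring of Pigr-/- dams. The group with active SIgA only held Pigr+/- offspring of Pigr-/- dams, which transport SIgA themselves but received none in milk. The group with passive SIgA only held Pigr-/- offspring of Pigr+/- dams, which received it in milk alone. The group with passive and active SIgA held Pigr+/- offspring of Pigr+/- dams, so that the mice with both sources were heterozygous and not wild type. Each of the 8 groups had 2 arrays, thus 6 mice. Dam genotype is shared by a litter, so litter and passive SIgA cannot be told apart.

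In the colon, absorbed and secreted water follows the salt that epithelial channels and exchangers move, and aquaporins are one route that it can take. Aqp8 is known from surface colonocytes and also passes hydrogen peroxide, and Aqp4 is known from the basolateral membrane of gastrointestinal epithelia as well as from astrocytes. Aqp1 is known from endothelium and red blood cells. Aqp3, Aqp7 and Aqp9 are aquaglyceroporins, which pass glycerol as well as water, while Aqp11 lies in membranes inside the cell.

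Aqp8 and Aqp1 were the 2 members that fell with DSS, so the bases before their start sites are shown for comparison. Promoters of 6 of the 7 members, all but Aqp4, were searched here, with sequences from RefSeq's table for GRCm38.p6. Each stretch below is the 250 bases before the start, 5′ to 3′ on the gene's strand, with matches to 5 short motifs in capitals.
Aqp8, chr7:123462044-123462293, plus strand: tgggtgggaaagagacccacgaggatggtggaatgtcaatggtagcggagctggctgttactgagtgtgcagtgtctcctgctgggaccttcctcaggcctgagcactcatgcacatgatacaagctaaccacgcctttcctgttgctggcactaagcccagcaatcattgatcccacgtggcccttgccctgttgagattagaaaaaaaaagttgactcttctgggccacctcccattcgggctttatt
Aqp1, chr6:55336049-55336298, plus strand: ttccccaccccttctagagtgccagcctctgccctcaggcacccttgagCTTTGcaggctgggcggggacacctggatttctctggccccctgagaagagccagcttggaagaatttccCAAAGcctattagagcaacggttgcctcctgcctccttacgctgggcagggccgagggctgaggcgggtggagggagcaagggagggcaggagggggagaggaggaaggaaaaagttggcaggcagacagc
The motifs, searched on both strands, were TATAAA for the TATA box, TTTATG for caudal-type factors, CAAAG for hepatocyte nuclear factor 4, AGATAA for GATA factors and TGANTCA for AP-1. They occurred in 12.4%, 10.8%, 48.6%, 9.99% and 6.75% of 32851 promoter windows of this length. None of the 5 lay in the Aqp8 window, whose GC content was 52.4%. The Aqp1 window, with a GC content of 62%, held CAAAG on the plus strand 131 to 127 bases before the start and on the minus strand, printed as CTTTG, 201 to 197 bases before it. Of the other members, Aqp3 had a TATA box match 29 to 24 bases before its start, Aqp7 had the GATA motif, Aqp11 had CAAAG at 2 places, and Aqp9 had the caudal-type and AP-1 motifs and CAAAG. For Aqp7 and Aqp9 a window before another start was also searched, and it held none of the 5 motifs. A match is a description of letters only. In the RefSeq table Aqp7 and Aqp3 are adjacent coding genes, and Aqp8 and Aqp11 lie on the same chromosome.

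Pigr itself followed the labels, with log2 values of 11.34 to 11.70 in the 8 arrays of Pigr-/- offspring, against 12.18 to 12.46 in the 8 arrays of Pigr+/- offspring. Its probe set thus kept a signal in Pigr-/- offspring. A principal component analysis set 3 of the 16 arrays apart on its leading axis (34.1% of the variance). They were both untreated arrays with passive and active SIgA, at -33.5 and -35.2, and replicate 1 of the untreated group with active SIgA only, at -32.2, while the other 13 ran from -5.5 to 27.4. The same 3 arrays had the highest means over 1251 genes for chemosensory receptors and keratin-associated proteins, 5.25, 5.41 and 4.87, against 4.44 to 4.70 in the others. The averaged DSS differences of the members, and their called or nearest SIgA differences, are given also without the untreated group with both sources, without all 3 arrays, or both. In these fits the group matched to the missing one leaves the comparison too. DSS differences are then averaged over the other SIgA groups, and SIgA differences over all groups are averaged over the remaining matched pairs. In untreated mice, passive SIgA is then compared only among Pigr-/- offspring, and active SIgA only among offspring of Pigr-/- dams. The interactions, the differences between DSS effects and the gene lists are given with all 16 arrays. All p-values reflect variation among pools, not among single mice.

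DSS changed 3 of the 7 aquaporins when its effect was averaged over the 4 SIgA groups: Aqp4 rose, and Aqp8 and Aqp1 fell. Calls are at an adjusted p under 0.05 from limma over all 19938 genes, at which DSS changed 13.1% of genes, 6.4% upwards and 6.73% downwards. The median difference of the 7 members was -0.09 log2, against -0.0044 over all genes. Between the 8 DSS arrays and the 8 untreated arrays, Aqp8 and Aqp4 did not overlap, as was the case for 2.89% of all genes, 1.58% higher and 1.3% lower with DSS. The members were chosen with the DSS results of Aqp8 and Aqp4 in these data known, so these counts are not an independent test of them. In RNA of whole cell isolates, fewer cells of a type and less RNA per cell cannot be told apart.

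**Figure D1:**
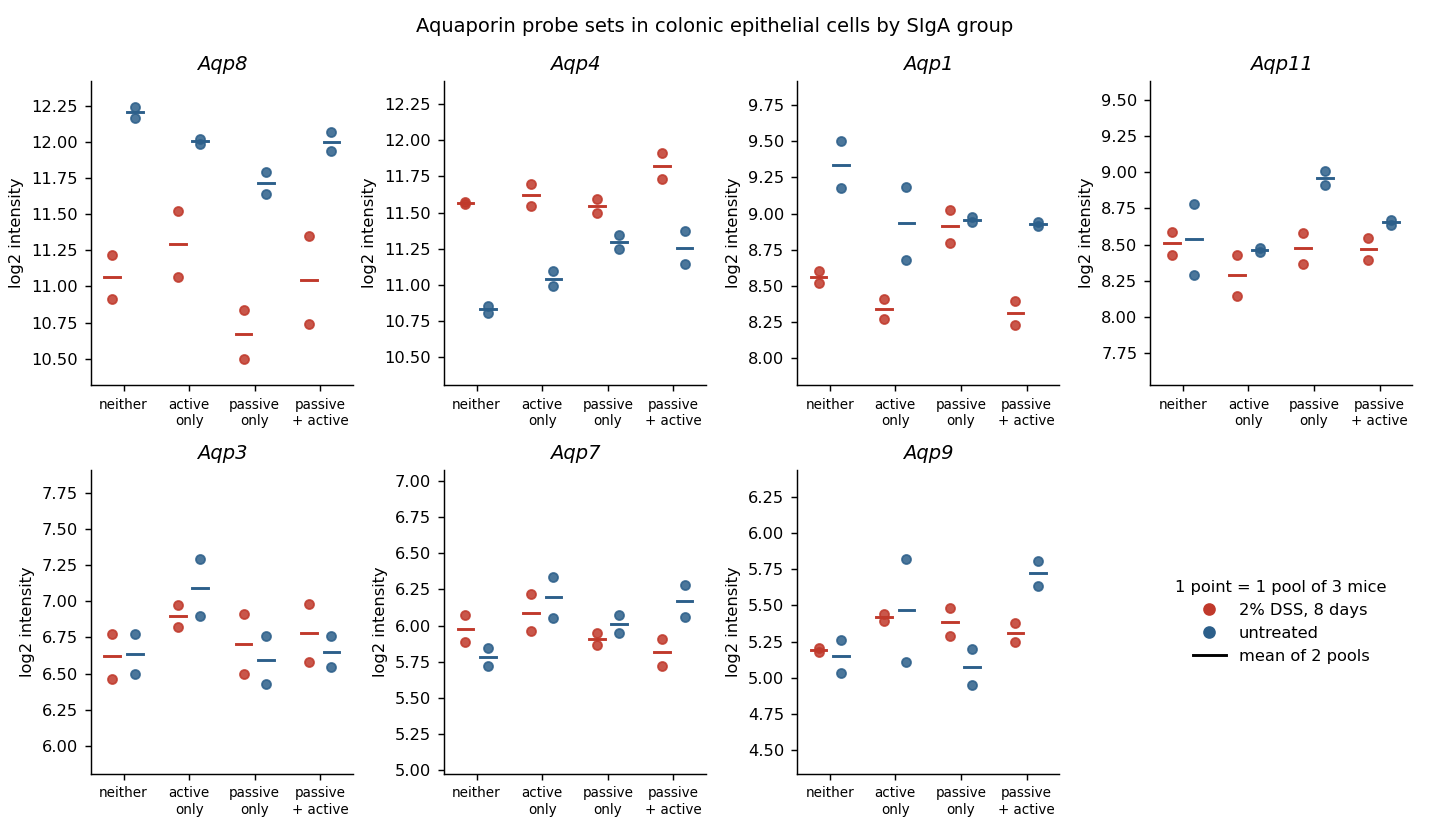
Log2 level (vertical axis) of the 7 aquaporins in each of the 16 arrays, 1 panel per gene, with each point 1 array, each bar the mean of a group's 2 arrays, and the DSS group left of the untreated group for each SIgA status. DSS and untreated points are fully apart for Aqp8 and Aqp4 and partly apart for Aqp1. Levels of different panels come from different probe sets and cannot be ranked against each other.

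Aqp8 was lower after DSS in each of the 4 SIgA groups. Its log2 levels with neither source of SIgA were 11.22 and 10.92 after DSS, against 12.17 and 12.24 untreated. With active SIgA only they were 11.06 and 11.52 after DSS, against 11.98 and 12.02 untreated. In both groups the DSS arrays lay below the untreated arrays. With passive SIgA only Aqp8 stood at 10.50 and 10.84 after DSS, against 11.64 and 11.79 untreated. With passive and active SIgA it stood at 11.35 and 10.74 after DSS, against 11.93 and 12.07 untreated. The 8 DSS arrays had a lowest, median and highest level of 10.50, 10.99 and 11.52, against 11.64, 12.00 and 12.24 in the 8 untreated arrays, so that the highest DSS array stayed under the lowest untreated one. With 2 arrays against 2, groups that do not overlap are common: 40.8% of all genes in mice with neither source, 38.2% in those with active SIgA only, 43% where SIgA was passive only and 50.2% with both. The averaged effect was -0.96 ± 0.10 log2 (standard error), with a 95% interval of -1.18 to -0.75, which is 1.95-fold lower after DSS (limma, adjusted p = 3.588e-05). Without the untreated group with both sources it was -0.96 ± 0.12 (limma, adjusted p = 0.0004194), and without the 3 arrays that stand apart it was -0.97 (adjusted p = 0.001065). In the order of the 8 group means, the 4 DSS groups, from 10.67 with passive SIgA only to 11.29 with active SIgA only, came first and overlapped with their neighbours. The untreated group with passive SIgA only, at 11.71, was apart from the groups on both sides of it, and the untreated group with neither source was highest at 12.20.

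Aqp4 showed the opposite direction. With neither source of SIgA its log2 levels were 11.57 and 11.56 after DSS, against 10.81 and 10.86 untreated. With active SIgA only they were 11.70 and 11.55 after DSS, against 11.10 and 10.99 untreated. The smallest gap was that with passive SIgA only, where Aqp4 stood at 11.59 and 11.50 after DSS, against 11.34 and 11.25 untreated. With passive and active SIgA it stood at 11.74 and 11.91 after DSS, against 11.14 and 11.37 untreated. The lowest, median and highest of the 8 DSS arrays were 11.50, 11.58 and 11.91, against 10.81, 11.12 and 11.37 in the 8 untreated arrays, so every DSS array lay above every untreated one. The averaged difference was 0.53 ± 0.06 log2 with a 95% interval of 0.41 to 0.66, a 1.45-fold increase (limma, adjusted p = 4.787e-05). It was 0.52 ± 0.06 without the untreated group with both sources (limma, adjusted p = 0.0004194) and 0.54 without the 3 arrays that stand apart (adjusted p = 0.0007417). The SD over the 8 arrays was 0.135 after DSS, against 0.211 untreated, both taken across the SIgA groups. The untreated group means ran, low to high, from 10.83 with neither source over 11.04 with active SIgA only to 11.26 with both and 11.30 with passive SIgA only, of which the last 2 overlapped. The DSS means of 11.55, 11.56 and 11.62 overlapped with their neighbours, and that of the group with both sources, 11.82, was apart above them.

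Aqp1 fell as well, with more overlap between arrays. With neither source of SIgA its log2 levels were 8.60 and 8.52 after DSS, against 9.17 and 9.50 untreated. With active SIgA only they were 8.27 and 8.41 after DSS, against 9.19 and 8.68 untreated. In mice with passive SIgA only the arrays of both conditions were intermixed, at 8.80 and 9.03 after DSS, against 8.94 and 8.98 untreated. With passive and active SIgA Aqp1 stood at 8.40 and 8.23 after DSS, against 8.91 and 8.94 untreated. Over all groups, 6 of the 8 DSS arrays lay below the lowest untreated array, and the other 2 were those with passive SIgA only. The averaged difference was -0.51 ± 0.08 log2 with a 95% interval of -0.68 to -0.33, which is 1.42-fold lower (limma, adjusted p = 0.00101). It was -0.47 ± 0.10 without the untreated group with both sources (limma, adjusted p = 0.01223) and -0.39 without the 3 arrays that stand apart (adjusted p = 0.01876). In the order of group means, Aqp1 was lowest in the DSS groups with both sources, at 8.31, and with active SIgA only, at 8.34, which overlapped. The DSS group with neither source, at 8.56, was apart from its neighbours on both sides. The DSS group with passive SIgA only, at 8.91, overlapped in a row with 3 untreated groups at 8.93 to 8.96. The untreated group with neither source was highest at 9.34. It was apart from the group next below it, the untreated one with passive SIgA only. Its arrays, at 9.17 and 9.50, overlapped with those of the untreated group with active SIgA only, at 9.19 and 8.68.

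Aqp11, the intracellular member, was not called for DSS. Its lowest, median and highest log2 levels were 8.15, 8.43 and 8.59 in the 8 DSS arrays, against 8.29, 8.66 and 9.01 in the 8 untreated arrays. The averaged difference was -0.22 ± 0.08 with a 95% interval of -0.39 to -0.05 (limma, adjusted p = 0.08506, unadjusted p = 0.01458). Without the untreated group with both sources it was -0.23 ± 0.09 (adjusted p = 0.2163), and without the 3 arrays that stand apart -0.23 (adjusted p = 0.2591). The gap was widest with passive SIgA only, where the arrays stood at 8.37 and 8.58 after DSS, against 9.01 and 8.91 untreated, and there too the difference of -0.49 ± 0.16 was not called (adjusted p = 0.1693). In its order of 8 group means, from 8.29 in the DSS group with active SIgA only to 8.96 in the untreated group with passive SIgA only, 5 of 7 neighbouring pairs overlapped.

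The aquaglyceroporins did not pass the test for the averaged DSS effect. Aqp3, a basolateral channel of many epithelia, ran from 6.46 over a median of 6.80 to 6.98 after DSS, against 6.43, 6.76 and 7.29 untreated. Its difference was 0.0075 ± 0.10 with a 95% interval of -0.21 to 0.22. It was -0.033 without the untreated group with both sources and 0.033 without the 3 arrays that stand apart (adjusted p = 0.9667 and 0.9313). The Aqp3 arrays overlapped, and the untreated ones reached higher. Aqp7, known as the glycerol channel of adipocytes, ran from 5.72 over a median of 5.93 to 6.22 after DSS, against 5.72, 6.06 and 6.33 untreated, with a difference of -0.09 ± 0.07 and an interval of -0.24 to 0.06. Aqp9, known from hepatocytes and leukocytes, ran from 5.18 over a median of 5.33 to 5.48 after DSS, against 4.95, 5.23 and 5.82 untreated, with a difference of -0.025 ± 0.09 and an interval of -0.23 to 0.18. The adjusted p-values of these 3 genes in limma were 0.9783, 0.4625 and 0.9134. Both Aqp7 and Aqp9 are among the dimmest 30% of the genes tested, with all levels under the array medians of 6.678 to 6.825. Aqp9 spread more among the untreated arrays, of which 3 reached 5.63 or more: the 2 with passive and active SIgA, at 5.81 and 5.63, and replicate 1 with active SIgA only, at 5.82. These are the 3 arrays that stood apart. Without them the averaged DSS difference of Aqp9 was 0.22 (adjusted p = 0.1505), the opposite sign, and that of Aqp7 was 0.041 (adjusted p = 0.862).

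Neighbours in the order of group means overlapped in 7 of 7 pairs for Aqp3 and Aqp7, and in 6 of 7 for Aqp9. Between SIgA groups, Aqp7 had estimates of opposite sign, in that its DSS difference was 0.20 with neither source (adjusted p = 0.841) and -0.35 ± 0.14 with both (adjusted p = 0.1355). The difference between these effects, 0.55 ± 0.20, was not called (limma, adjusted p = 0.2253).

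The family has 5 further genes on the array: Mip, Aqp2, Aqp5, Aqp6 and Aqp12, which are best known from the lens, the kidney, glands and the pancreas. None of the 5 was called for the averaged DSS effect by limma, and none had an unadjusted p under 0.05. Their differences ran from -0.08 to 0.09 log2, with adjusted p-values of 0.6916 to 0.913.

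**Figure D2:**
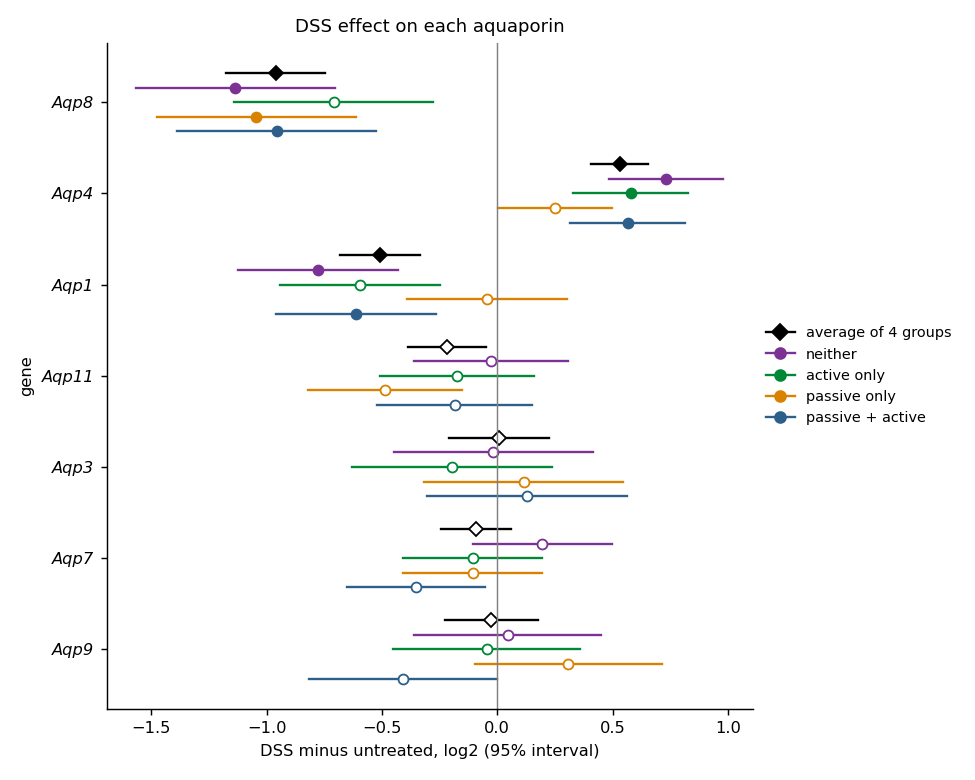
DSS minus untreated log2 difference (horizontal axis) of the 7 aquaporins, averaged and within each SIgA group, with bars as 95% intervals of the limma fit and filled markers for an adjusted p under 0.05. Aqp8 lies left of 0 and Aqp4 right of 0 throughout, whereas the estimate for Aqp1 with passive SIgA only lies at -0.044.

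Within single SIgA groups, each resting on 2 DSS and 2 untreated arrays, 8 of the 28 tests of the members were called. With neither source of SIgA 3 were called, where 1.12% of all genes were: Aqp8 fell by 1.14 ± 0.20 log2 (adjusted p = 0.0146), Aqp1 fell by 0.78 ± 0.16 (adjusted p = 0.03639), and Aqp4 rose by 0.73 ± 0.11 (adjusted p = 0.007483). With active SIgA only, Aqp4 was the 1 member called, where 0.998% of genes were, and rose by 0.58 (adjusted p = 0.0328). Without the 3 arrays that stand apart, of which 1 enters this comparison, the difference was 0.63 and not called (adjusted p = 0.103). The Aqp8 difference there was -0.71 (adjusted p = 0.1362) and that of Aqp1 was -0.59 (adjusted p = 0.1179). With passive SIgA only, Aqp8 was the 1 member called, where 1.98% of genes were, and fell by 1.04 (adjusted p = 0.01525). The Aqp4 difference was then 0.25 (adjusted p = 0.4349), and that of Aqp1 was -0.044 with an interval of -0.39 to 0.30 (adjusted p = 0.9685). With passive and active SIgA 3 members were called, where 10.1% of genes were: Aqp8 fell by 0.96 (adjusted p = 0.008141), Aqp1 fell by 0.61 (adjusted p = 0.02852), and Aqp4 rose by 0.57 (adjusted p = 0.006994). Both untreated arrays of this last comparison are among the 3 that stood apart, and without them it cannot be made. The members called numbered from 4 to 8 as each array was left out in turn, and no direction changed.

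Each of the 8 calls was lost without at least 1 array. With neither source, leaving out any of the 4 arrays compared gave limma adjusted p-values of 0.06397 to 0.1944 for Aqp8, 0.06671 to 0.08412 for Aqp4 and 0.06548 to 0.3153 for Aqp1. The Aqp1 call was lost as well without either DSS array with active SIgA only (adjusted p = 0.05112), either untreated array with passive SIgA only (0.06089) or either untreated array with both sources (0.06163). With active SIgA only, the Aqp4 call was lost without any of the 4 arrays compared (0.05767 to 0.2906), either array with neither source, after DSS (0.05506) or untreated (0.05186), or either untreated array with passive SIgA only (0.0505). The Aqp1 difference in that SIgA group became -0.85 and was called without replicate 2 of its untreated arrays (adjusted p = 0.0192). With passive SIgA only, the Aqp8 call was lost without replicate 1 after DSS or either untreated array (0.08011 to 0.1979). With both sources, Aqp8 lost its call without replicate 2 after DSS (0.101) or untreated (0.07729). Aqp4 lost it there without replicate 2 after DSS (0.08249) or replicate 1 untreated (0.07992), and Aqp1 without replicate 2 after DSS or either untreated array (0.107 to 0.177).

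The DSS effects of the 4 SIgA groups were also set against each other, in 42 pairwise differences of the 7 members. None was called by limma (smallest adjusted p = 0.2253), and 6 had an unadjusted p under 0.05. The largest of these differences was that of Aqp1 between the group with neither source and the group with passive SIgA only, -0.73 ± 0.23 log2 (unadjusted p = 0.006744, adjusted p = 0.9437). For Aqp4 the same pair of groups differed by 0.48 ± 0.16 (unadjusted p = 0.01096, adjusted p = 0.9998). A call of Aqp1 in some SIgA groups and not in others was thus not shown to be a difference between them. Calls over all genes were not counted for the pairwise differences, so whether the lack of calls is particular to the members is not known.

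In untreated mice 1 member, Aqp4, was called for passive SIgA, where 2.58% of all genes were. It was lower without passive SIgA, at 10.81, 10.86, 11.10 and 10.99 in the 4 arrays of offspring of Pigr-/- dams, against 11.34, 11.25, 11.14 and 11.37 in those of Pigr+/- dams. The 2 sets did not overlap, as held for 6.19% of all genes. The difference was -0.34 ± 0.08 log2 with a 95% interval of -0.51 to -0.16 (limma, adjusted p = 0.0476). Without the untreated group with both sources, only Pigr-/- offspring are compared, neither source against passive SIgA only. The difference was then -0.46 ± 0.11 (limma, adjusted p = 0.3305). Without all 3 arrays that stand apart it is the same by construction, since replicate 1 with active SIgA only does not enter this comparison. In the fit without the untreated group with both sources 0% of all genes were called for this comparison. The call was also lost in 13 of the 16 fits that leave out a single array, where the difference ran from -0.40 to -0.28. The exceptions were the fits without replicate 1 of the untreated group with both sources (adjusted p = 0.03989) and without either array of the DSS group with both sources (adjusted p = 0.04262 each). After DSS the passive SIgA difference of Aqp4 was -0.09 ± 0.08 (adjusted p = 0.9997). Whether it differed between untreated and DSS mice was tested as an interaction, 0.25 ± 0.11, which was not called (unadjusted p = 0.05047, adjusted p = 0.6093).

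No member was called for passive SIgA over all groups, where 0.963% of genes were, or after DSS, where 0% were. Over all groups 3 members had an unadjusted p under 0.05. Among them, Aqp8 differed by 0.28 ± 0.10, without minus with passive SIgA (limma, unadjusted p = 0.01374, adjusted p = 0.1932), and Aqp4 by -0.21 ± 0.06 (adjusted p = 0.09524). Without the untreated group with both sources these differences were 0.38 for Aqp8 (limma, unadjusted p = 0.00799, adjusted p = 0.4437) and -0.21 for Aqp4 (unadjusted p = 0.005968, adjusted p = 0.394). In that fit 0.015% of all genes were called for passive SIgA over all groups. In untreated mice Aqp11 differed by -0.31 ± 0.11 and was not called (adjusted p = 0.1486), and without the untreated group with both sources it differed by -0.43 (adjusted p = 0.5994).

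**Figure D3:**
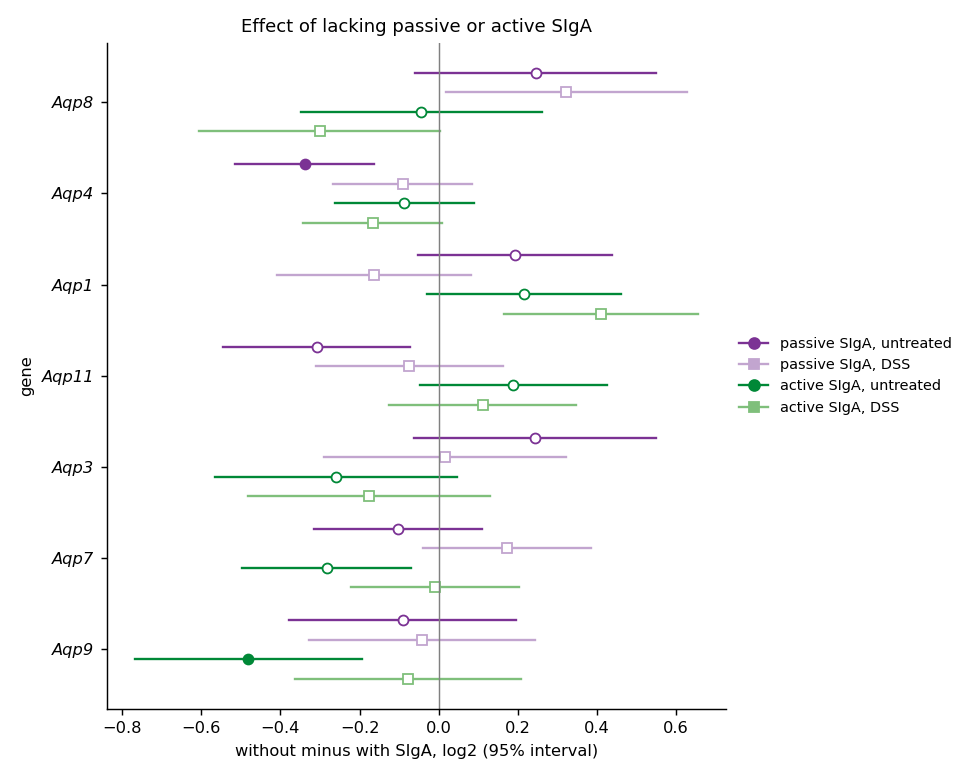
Log2 difference without minus with passive SIgA, and without minus with active SIgA (horizontal axis), of the 7 aquaporins, in untreated mice (circles) and in mice given DSS (squares), with bars as 95% intervals of the limma fit and filled markers for an adjusted p under 0.05. The 2 filled markers are Aqp4 for passive SIgA at -0.34 and Aqp9 for active SIgA at -0.48, both in untreated mice.

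For active SIgA in untreated mice, Aqp9 was the 1 member called, where 7.49% of all genes were. Aqp9 is among the dimmest 30% of the genes tested. It stood at 5.26, 5.03, 5.20 and 4.95 in the 4 untreated arrays of Pigr-/- offspring, against 5.82, 5.11, 5.81 and 5.63 in those of Pigr+/- offspring. The 3 values above 5.6 are those of the 3 arrays that stood apart, and the fourth array of Pigr+/- offspring lay within the range of Pigr-/- offspring. The difference was -0.48 ± 0.13 log2 with a 95% interval of -0.77 to -0.19 (limma, adjusted p = 0.045). Without the untreated group with both sources, only offspring of Pigr-/- dams are compared, neither source against active SIgA only. The difference was then -0.32 ± 0.19 (limma, adjusted p = 0.4767). Without the 3 arrays it was 0.041, with 1 untreated array with active SIgA only left in the comparison. Leaving out single arrays ended the call in 13 of 16 fits. It held without replicate 2 of the untreated group with active SIgA only (-0.66, adjusted p = 0.002138) and without either DSS array of the group with both sources (adjusted p = 0.04184 each). In the same comparison none of 14 neutrophil markers and 1 of 12 monocyte and macrophage markers, which was lower without active SIgA, were called by limma. The medians of these lists were -0.14 and -0.15, below the -0.010 over all genes and of the same sign as Aqp9. This was not particular to leukocytes: among other lists, the endothelial, adipocyte and fibroblast medians were -0.15, -0.16 and -0.20. The colonocyte, goblet cell and epithelial identity medians had the other sign, at 0.058, 0.19 and 0.021. The part of any of these lists in the Aqp9 difference was not tested.

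No member was called for active SIgA over all groups, where 1.37% of genes were, or after DSS, where 0.00502% were. Aqp1 came nearest over all groups, with a difference of 0.31 ± 0.08, without minus with active SIgA (limma, unadjusted p = 0.001835, adjusted p = 0.07904), and it was called when replicate 1 of the untreated group with active SIgA only was left out (0.38, adjusted p = 0.02976). Without the untreated group with both sources it was 0.41 ± 0.10 (limma, unadjusted p = 0.001223, adjusted p = 0.8292), where 0.00502% of all genes were called. After DSS alone the Aqp1 difference was 0.41 ± 0.11 (unadjusted p = 0.00318, adjusted p = 0.9998). Aqp3 differed by -0.22 over all groups (unadjusted p = 0.04894, adjusted p = 0.2743), and Aqp7 by -0.28 ± 0.10 in untreated mice (adjusted p = 0.09322). Without the untreated group with both sources these differences were -0.27 for Aqp3 (limma, unadjusted p = 0.041, adjusted p = 0.8292) and -0.41 for Aqp7 (unadjusted p = 0.01167, adjusted p = 0.4467). Without replicate 2 of the untreated group with active SIgA only, the Aqp7 difference in untreated mice was -0.35 and called (adjusted p = 0.02999), as was that of Aqp9 over all groups (-0.37, adjusted p = 0.01617).

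The interactions of passive SIgA with DSS, active SIgA with DSS and passive with active SIgA, and the three-way term, called 0.115%, 0.843%, 0.0752% and 0.0602% of all genes and none of the members in limma. At an unadjusted p under 0.05 there were 1, 0, 0 and 1 members. Both were Aqp1, with -0.36 for passive SIgA with DSS (unadjusted p = 0.04515, adjusted p = 0.606) and -0.75 ± 0.32 for the three-way term (unadjusted p = 0.03639, adjusted p = 0.6929).

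Genes that work with the aquaporins were followed in the averaged DSS effect, with counts to be read against the 6.4% of genes that rose and the 6.73% that fell. Of 14 measured genes of colonic ion absorption none rose and 10 fell, with a median of -0.35 log2. They included Scnn1a, a subunit of the epithelial sodium channel, which fell by 0.76 ± 0.08 (limma, adjusted p = 4.57e-05), the chloride/bicarbonate exchanger Slc26a3, which fell by 0.47, the sodium/proton exchanger Slc9a2, which fell by 0.40, and the colonic proton/potassium pump subunit Atp12a, which fell by 0.69. Of 12 genes of ion secretion none rose and 6 fell, with a median of -0.19. The calcium-activated chloride channel Ano1 fell by 1.20 ± 0.06 (adjusted p = 1.111e-07), and the bestrophin Best2, known from goblet cells, fell by 1.23 ± 0.09 (adjusted p = 1.367e-06). Both lists thus had more falls than rises.

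The 9 measured genes for anchoring and partners of Aqp4, such as utrophin (Utrn), had no call by limma, while Aqp4 rose. Utrn had the smallest p of them, with -0.15 ± 0.06 (adjusted p = 0.1531). Of 9 genes of vasopressin and cAMP signalling, the route that moves Aqp2 in the kidney, none rose and 3 fell: Prkar2b, a regulatory subunit of protein kinase A, fell by 0.66, the prostaglandin receptor Ptger4 fell by 0.31, and the adenylate cyclase Adcy6 fell by 0.21. Of 11 genes of glycerol handling 1 rose and 2 fell. Dgat2, which makes triglyceride, rose by 0.68 ± 0.07 (limma, adjusted p = 5.111e-05), Gpam, which acylates glycerol phosphate, fell by 0.71 ± 0.05 (adjusted p = 2.014e-06), and Abhd5, a lipolysis co-activator, fell by 0.23.

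Of 13 genes that make or remove hydrogen peroxide 5 rose and none fell, with a median of 0.17. Duox2, an epithelial oxidase that releases hydrogen peroxide, rose by 1.41 ± 0.12 (limma, adjusted p = 6.688e-06), and its maturation factor Duoxa2 rose by 1.83 ± 0.12 (adjusted p = 6.889e-07). The glutathione peroxidase Gpx2 rose by 0.65, the thioredoxin reductase Txnrd1 by 0.36 and the oxidase organiser Noxo1 by 0.27. Aqp8, Aqp3 and Aqp9 are among the members known to pass hydrogen peroxide, and of these Aqp8 fell while Aqp3 and Aqp9 were not called.

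Markers of the cells that carry these channels were read in the same arrays, as the mean log2 level over each list. For the isolate as a whole, 12 epithelial identity genes had means of 12.06 to 12.19 in the DSS arrays, against 12.09 to 12.21 in the untreated arrays, with 2 falls (Cldn3 by 0.21 and Krt18 by 0.20). These levels do not measure the purity of the isolate. The 15 colonocyte markers, Aqp8 itself among them, had means of 11.87 to 12.12 after DSS, against 12.02 to 12.23 untreated. Of these 2 rose and 7 fell, with a median of -0.10, and the part of this list in the Aqp8 difference was not tested. Ms4a12 rose by 0.93 and Fabp2, a fatty acid binding protein, fell by 0.55. The Aqp8 difference of -0.96 was the most negative of the members with the smallest p on that list.

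Beside Aqp1, none of 12 endothelial markers was called by limma, with list means of 5.93 to 6.24 after DSS, against 5.97 to 6.45 untreated, and a median of -0.031. Pecam1 differed by -0.09 ± 0.08 and Emcn by -0.17 ± 0.08, while Cldn5 went the other way with 0.10 ± 0.10. Of the red cell list only 3 of 10 genes were measured, and none was called. The globin genes were not among the 3. Beside Aqp4, 1 of 9 enteric neuron and glia markers rose, the receptor Ret by 0.34, and the list means ran from 6.02 to 6.22 after DSS, against 5.95 to 6.34 untreated. The astrocyte and enteric glia filament Gfap differed by -0.09 ± 0.09 (adjusted p = 0.613). The means of the endothelial, red cell, and neuron and glia lists all lay under the array medians of 6.678 to 6.825. Changes in such dim lists may not show, and their part in the Aqp1 and Aqp4 differences was not tested.

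Beside Aqp9, 9 of 14 neutrophil markers rose with DSS and none fell, with a median of 0.60 and list means of 6.15 to 6.75 after DSS, against 5.48 to 5.94 untreated. Retnlg rose by 1.54 and the calprotectin subunit S100a8 by 1.11. Among 12 markers of monocytes and macrophages there were 8 rises and no fall, with list means of 6.34 to 6.60 after DSS, against 5.83 to 6.09 untreated. The DSS difference of Aqp9 was -0.025 over all arrays and 0.22, the sign of these lists, without the 3 arrays that stand apart, and was called in neither fit. The part of the leukocyte lists in it was not tested. Beside Aqp7, none of 9 adipocyte markers was called, with list means of 6.68 to 7.01 after DSS, against 6.68 to 6.99 untreated. Of 10 fibroblast markers 4 rose (Vim, Dcn, Fbln1 and Pdpn), none of 10 smooth muscle markers was called, and of 9 goblet cell markers 2 rose and 2 fell. The leukocyte and fibroblast lists moved with DSS in the same arrays as Aqp4, Aqp8 and Aqp1, and their part in those differences was not tested.

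**Figure D4:**
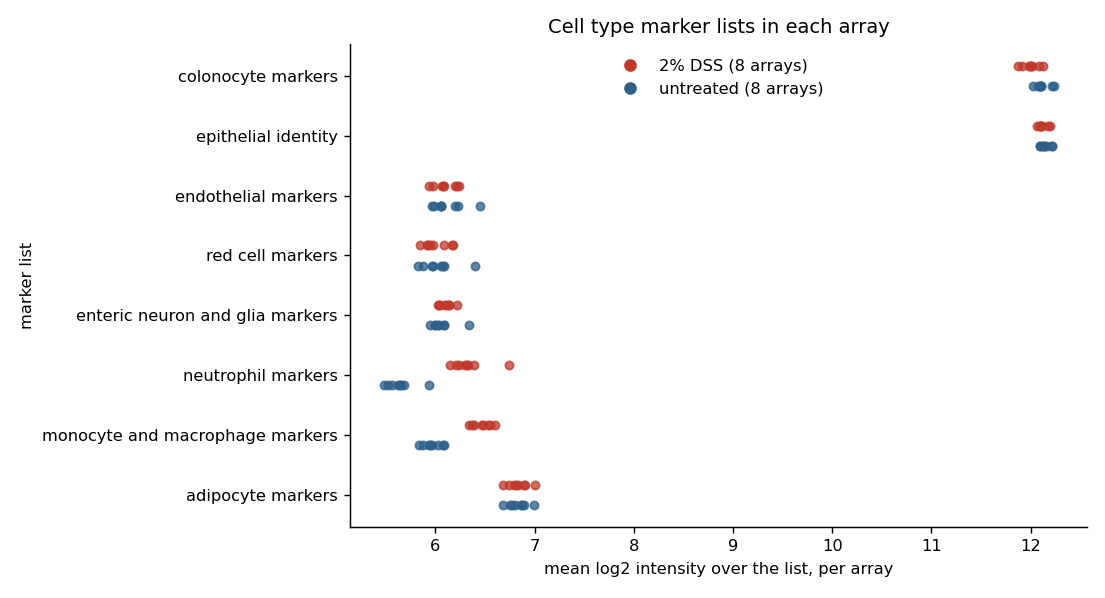
Mean log2 intensity over 8 cell type marker lists (horizontal axis) in the 16 arrays, with 1 list per row and each point 1 array, the 8 DSS arrays drawn above the 8 untreated arrays. The neutrophil means of 6.15 to 6.75 after DSS lie above those of 5.48 to 5.94 untreated, while the endothelial means overlap.

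The genes whose pattern over the 8 groups was most like that of Aqp8 and of Aqp4 were looked up among 2535 named genes called for DSS, by the mean absolute gap between group means after each gene was centred on its own mean. For Aqp8 they were Tgm3, a transglutaminase, at a gap of 0.0696 log2, the peptide transporter Slc15a1 at 0.0939, Pdzd7 at 0.107, and Fxyd4, a regulator of the sodium pump, and Eno3, an enolase, both at 0.119. Their averaged DSS differences ran from -1.15 for Fxyd4 to -0.95 for Tgm3, beside -0.96 for Aqp8. For Aqp4 they were the uroplakin Upk1b at 0.0733, the phosphatase Ptpn12 at 0.0797, Desi2 at 0.082, the chaperone Hspa4l at 0.0833 and the lectin receptor Clec4n at 0.0852. Their differences ran from 0.39 for Desi2 to 0.60 for Ptpn12, beside 0.53 for Aqp4. The likeness is a description over 8 group means of 2 arrays each, and a gene had to be called for DSS to be considered.

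**Figure D5:**
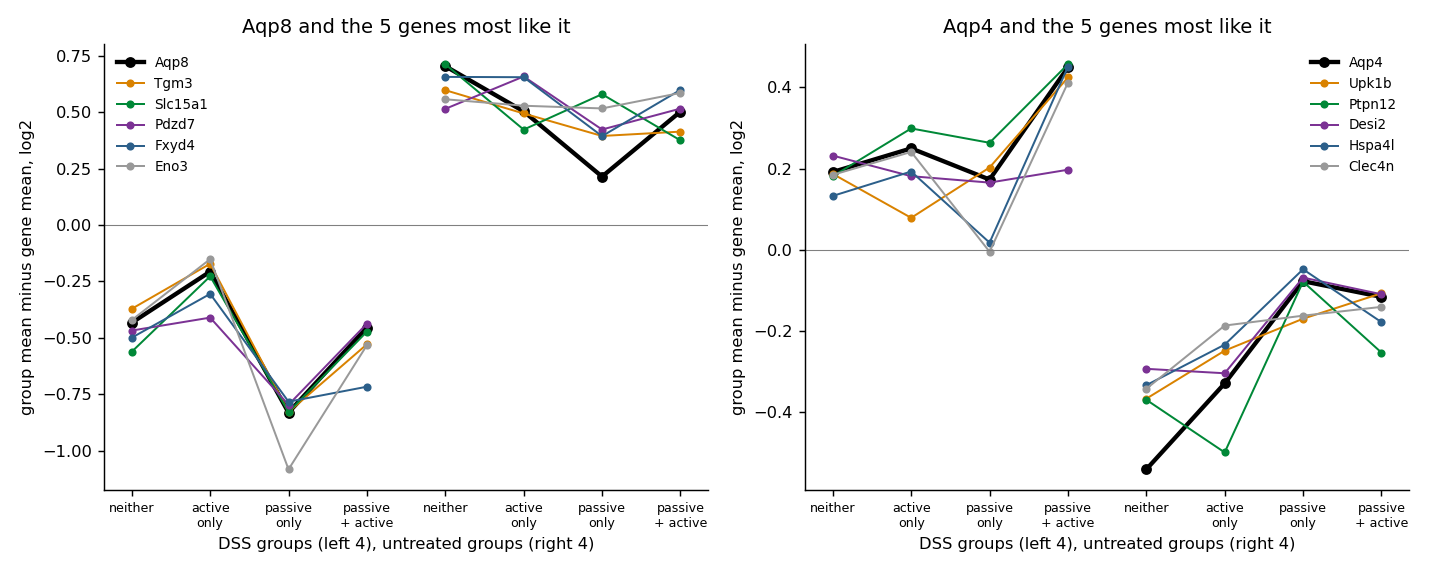
Group means centred on each gene's own mean (vertical axis, log2) over the 8 groups for Aqp8 and Aqp4, each with the 5 genes nearest to it. Each line is 1 gene, with the 4 DSS groups left and the 4 untreated groups right in each panel. The DSS groups lie below 0 for Aqp8 and above 0 for Aqp4.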

How the data were processed

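Colonic epithelial RNA of 16 pools of 3 mice was hybridised to an Affymetrix whole-transcript array. Only RNA with an integrity number of at least 8.5 was used, per the labels' protocols. The deposited values are log2 intensities, which the authors made with RMA according to the submitters' processing notes. Neither an RMA version nor the array's genome build is given in the sources used here. Values ran from 1.857 to 14.938, with medians of 6.678 to 6.825 per array. Raw intensities were not used here.

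Of 35557 probe sets, 21789 named 1 gene, 1621 several and 12147 none. The first kind was used, with the highest mean for the 999 genes that had several, which left 19938 genes. A mean per group was fitted with limma 3.58.1 in R 4.3.3, with two-sided moderated tests whose degrees of freedom were 8 residual plus 5.03 prior. Adjustment was by Benjamini-Hochberg over all genes, and the fit was tested on simulated data. A call is an adjusted p under 0.05. Differences are DSS minus untreated, or without minus with SIgA, ± standard error. The number of arrays limits the precision, and the labels name no batch.

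Named genes were the family members, up to 5 members of each list with the smallest p, the 5 genes nearest to Aqp8 and to Aqp4 (unnamed, predicted and microRNA genes left aside), and Pigr. The members and lists were chosen with earlier results of these data known. Promoter sequences are from RefSeq (GRCm38.p6), and none is shown for Aqp4. Alternatives were a prior variance with trend, unmoderated tests, array weights, a replicate block, median centring, quantile normalization, removal of the dimmest 30% of genes, every probe set or a gene's mean, a looser threshold of 0.1, fits to single comparisons, and leaving out the arrays that stand apart or each array in turn.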

Additional observations from a re-analysis of the deposited data

How the results depend on the processing

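The averaged DSS calls of Aqp8, Aqp4 and Aqp1 held in all 12 alternatives and all 16 fits that left out 1 array: Aqp8 ran from -1.04 to -0.89, Aqp4 from 0.50 to 0.56 and Aqp1 from -0.57 to -0.39. Members called were 3, or 3 to 4 with each array left out, the fourth being Aqp11, which was also called after quantile normalization (adjusted p = 0.02319). Within SIgA groups, 8 calls became 4 with no moderation and 4 when each comparison was fitted alone, and 4 to 8 with each array left out. They became 7 with array weights (Aqp4 with active SIgA only lost, adjusted p = 0.1754), 6 after quantile normalization (that call lost at 0.05935, and Aqp1 with neither source at 0.05245) and 9 with median centring (Aqp7 with both sources gained, 0.03966). For passive SIgA, 1 call became 2 with a trend in the prior variance or an adjusted p under 0.1, and 0 with array weights, without the dimmest 30% of genes (Aqp4 at adjusted p = 0.05061), after removal of the untreated group with both sources or without the 3 arrays that stand apart (0 to 1 with each array left out). For active SIgA, 1 call became 2 with centring, 3 at an adjusted p under 0.1, and 0 with no moderation, quantile normalization, without the dimmest 30% (which removes Aqp7 and Aqp9), without that group or without the 3 arrays (0 to 3 with each array left out). The Aqp9 difference for active SIgA in untreated mice, -0.48, was 0.041 without the 3 arrays. That fit compares only offspring of Pigr-/- dams, with 1 untreated array with active SIgA only left. The Aqp4 call for passive SIgA and the Aqp9 call for active SIgA were also lost when each comparison was fitted alone. Interactions had 0 calls, and 0 to 1 with each array left out: Aqp9 for active SIgA with DSS (0.58, adjusted p = 0.04084) without replicate 2 of the untreated group with active SIgA only. The causes were not tested, apart from the loss of arrays or genes by construction. Over all genes, 2618 calls for DSS became 1210 without the untreated group with both sources. A group reduced to 1 array borrows its spread from the remaining groups. The labels name no pairing of the arrays by their replicate numbers. Between groups, the replicate differences correlated from -0.30 to 0.67, over 0.1 in 14 and under -0.1 in 9 of 28 pairs of groups. With the numbers as a replicate block, the members called stayed at 3, 8, 1, 1 and 0 for the averaged DSS, within-group DSS, passive, active and interaction tests, with Aqp8 at -0.96 (adjusted p = 3.82e-05).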
